A study of Mus musculus with 8 samples.

Results

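Respiratory complex I is the NADH dehydrogenase of the mitochondrial inner membrane, and its nuclear genes carry symbols that begin with Nduf. All protein-coding genes with such a symbol in the mouse annotation GENCODE M21 were taken, which gave 46 of the 49585 genes in the files. Of these, 8 are assembly factors by symbol (Ndufaf1 to Ndufaf8) and 38 are counted as subunits. The rule reads gene symbols alone and no measured value, but it was chosen with earlier results of these data known. The tissue was the spinal dorsal horn, where sensory fibres for touch and pain end, dissected from lumbar segments 4 to 6 of adult C57BL/6J mice. The 2 groups were 4 polyA RNA-seq libraries from miR-96 knock-out mice and 4 libraries from wild-type mice, and no treatment is named for either group. The labels give neither the knock-out allele nor whether the deletion is limited to some cell types. The series' design names 4 mice of each genotype, which matches the 4 libraries of each group, while the sample labels only number the libraries.

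Complex I takes electrons from NADH, passes them through a flavin and a chain of iron-sulfur clusters in its matrix arm to ubiquinone, and pumps protons through its membrane arm. Its catalytic core is built from nuclear subunits of the matrix arm and from mitochondrially encoded subunits of the membrane arm. Accessory subunits surround the core, and assembly factors help to build the enzyme without staying in it. Neurons depend on this enzyme for ATP, and inherited complex I defects affect mainly the nervous system.

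Levels are FPKM, in which fragment numbers are already scaled to transcript length and library size. Differences are on the log2(FPKM + 1) scale, knock-out minus wild type, with the standard error (SE) from limma. Values after ± are the SD over the 4 libraries of a group. The estimated depth was 31900000 to 43100000 fragments per library, and 24091 to 25560 genes had a value above 0. Mir96 was listed at 0 in all 8 libraries, but polyA libraries of long RNA do not measure mature microRNAs, so this checks nothing about the genotypes. All 46 genes passed the filter of a mean of 1 FPKM over the 8 libraries. In bulk tissue, fewer cells that express a gene and less of its RNA per cell cannot be told apart. Wild-type library 1 stood apart from the others in these genes, so the differences printed below are given also without it where that moves them by over 1.5 times. Without wild-type library 4 the median difference of the 46 genes moved the other way, from -0.23 to -0.36. That fit is described below for the genes together, not for each gene.

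The microRNA that the knock-out lacks is shown first, since the genotypes differ in it. The mature mouse sequence in RefSeq (build GRCm38.p6, chr6:30169506-30169528, minus strand) is printed with its seed, bases 2 to 8, in capitals.
mmu-miR-96-5p: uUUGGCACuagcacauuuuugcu
For each gene the longest annotated 3′ untranslated region (UTR) of its coding transcripts was taken. The UTRs of 45 of the 46 genes were at least 50 nt long. They were searched for the match to the seed, GTGCCAA, and for the 7-base form that ends in A, TGCCAAA, on the transcript strand only. Ndufab1 and Ndufb2 held a match, which is 4.44% of the 45 genes, against 20.5% of the 13058 tested genes with such a UTR. Complex I genes also had shorter 3′ UTRs, with a median of 235 nt against 1246 nt in those tested genes. The 3 matches were all of the form ending in A, shown in capitals within the transcript-strand sequence of GRCm38.
Ndufab1, chr7:122086644-122086670, minus strand: ttataaaacaTGCCAAAatgaggaagg
Ndufb2, chr6:39599443-39599469, plus strand: taaagtggctTGCCAAAaacgaggaac
Ndufb2, chr6:39601410-39601436, plus strand: gttggaaattTGCCAAAttcttcctgt
Ndufb2, an accessory subunit of the membrane arm (chr6:39592574-39603382), had 24.3, 25.0, 23.5 and 24.2 FPKM in the knock-out libraries, against 26.5, 19.5, 21.6 and 28.4 FPKM in the wild-type libraries. The knock-out values all lay inside the wild-type range, and the difference was 0.03 (SE 0.12), or 0.08 without wild-type library 1. Ndufab1, the mitochondrial acyl carrier protein, which sits at a pair of places in the complex, had 51.7 ± 3.37 FPKM in knock-out and 59.0 ± 10.2 FPKM in wild type, a difference of -0.17 (SE 0.12), or -0.07 without wild-type library 1. The UTRs with a match, 2944 nt in Ndufab1 and 4012 nt in Ndufb2, were longer than the principal transcript lengths of 2447.5 and 2413 nt. Whether transcripts with these long UTRs are expressed in this tissue was not tested. A match to the seed is a match of letters, not a shown site.

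No complex I gene passed limma's adjusted p of 0.05 between knock-out and wild type, and none of the 15061 genes tested did (0%). The lowest adjusted p among the 46 genes was 0.62. At an unadjusted limma p under 0.05, 1 complex I gene (Ndufs3) was lower in knock-out, where 1.83% of all genes tested were lower, and 0 were higher, where 3.69% were higher. With both directions counted, 831 genes (5.52%) lay under that p. The mean was lower in knock-out for 42 of the 46 genes, against 46.9% of all genes tested. The median difference was -0.23 over the 46 genes and 0.01 over all genes tested. By role, the mean was lower for 35 of 38 subunits (median -0.24) and for 7 of 8 assembly factors (median -0.17). These medians were -0.11 and -0.07 without wild-type library 1. In no complex I gene did all 4 knock-out libraries lie below, or above, all 4 wild-type libraries. Of all genes tested, 1.12% had such separate groups with lower and 1.91% with higher values in knock-out. The 95% interval of the difference included 0 for 45 of the 46 genes.

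**Figure D1:**
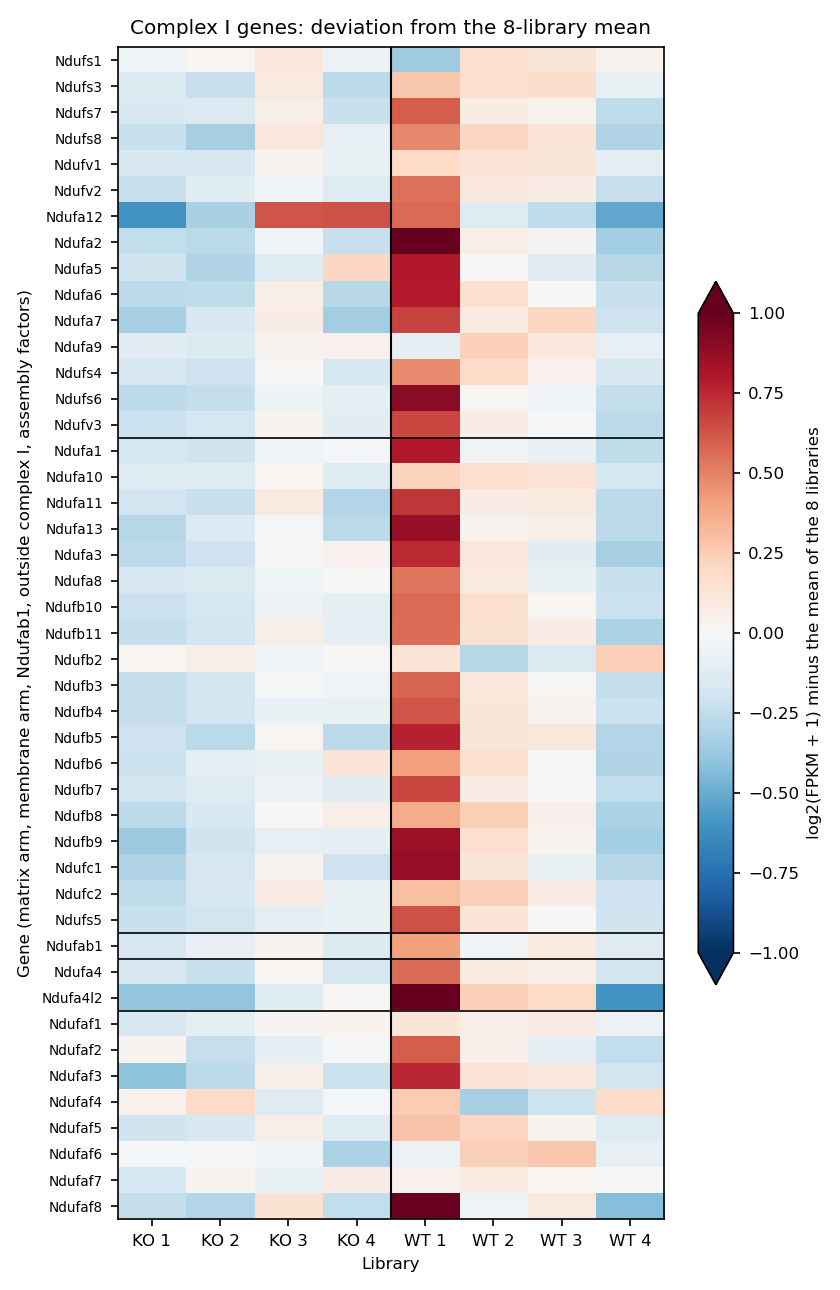
Deviation of complex I genes (rows, grouped by role; 1 of the 46 is not drawn) from their means over the 8 libraries, on the log2(FPKM + 1) scale, with knock-out libraries (KO) left of wild-type libraries (WT). The column of wild-type library 1 is the highest of the 8 for 40 of 46 genes, and wild-type library 4 lies within the knock-out range for 29 genes and is the lowest of the 8 for 16.

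Complex I genes largely shared their high and their low libraries. The summed level of the 46 genes was 4872, 4972, 5723 and 5392 FPKM in the knock-out libraries, against 8492, 6126, 5762 and 4833 FPKM in the wild-type libraries. Wild-type library 1 was far above every other library, while wild-type library 4 was below every knock-out library. Wild-type library 1 was the highest of the 8 libraries for 40 of the 46 genes, a position it held for 30% of all genes tested. Wild-type library 4 was the lowest wild-type library for 42 genes, against 29.8% of all genes tested. For 29 genes its value lay within the range of the knock-out libraries, and for 16 it was the lowest of all 8. Wild-type library 2 was above all knock-out libraries for 38 genes and wild-type library 3 for 28, but wild-type library 4 for 1. When the median deviation of the 46 genes was subtracted from each library, the median SD of a gene over the 8 libraries was 0.12, against 0.27 before. The SD was smaller for 38 of the 46 genes. The subtracted median came from these same genes, so part of the fall is built in. No such subtraction was made for other genes, so the fall is not shown to be particular to complex I. The membrane arm genes Ndufb3 and Ndufb10 and the core gene Ndufv2 kept the smallest SD after the subtraction, 0.03 each. Ndufa12 at 0.43, Ndufs1 at 0.38 and the assembly factor Ndufaf4 at 0.33 kept the largest.

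Without wild-type library 1, the median difference of the 46 genes was -0.11, and the mean was lower in knock-out for 39 of them, against 49.6% of all genes tested. The size of the difference was smaller for 40 of the 46 genes, and 0 had an unadjusted limma p under 0.05, against 3.74% of all genes tested. Without wild-type library 4 the median was -0.36, and 29 genes had such a p, all in the direction of lower values in knock-out, where 9.69% of all genes tested were lower at that p. In that fit 23 genes had all knock-out libraries below the remaining wild-type libraries, against 9% of all genes tested. The unadjusted p of Ndufs3 was no longer under 0.05 without wild-type library 1, 2 or 3 and without knock-out library 1, 2 or 4. Library weights estimated from the data were lowest for wild-type libraries 1 (0.153) and 4 (0.423) and highest for wild-type library 3 (5.09). With these weights, 9 complex I genes passed limma's adjusted p of 0.05, against 10.8% of all genes tested. In that fit 30 were lower at an unadjusted p under 0.05, against 16.6%. The count of complex I genes at an unadjusted p under 0.05 thus depended on the libraries in the fit. The other contents of the libraries were read from marker lists. The sum of the hemoglobin genes and Alas2, markers of blood of which 4 of 4 tested were lower in knock-out, was 17.8 to 39.3 FPKM in the knock-out libraries and 199 FPKM in wild-type library 1, with 5.96 to 34.4 FPKM in the other wild-type libraries. The sum of 6 oligodendrocyte markers, 5 of them lower in knock-out, was 10194 to 11290 FPKM in knock-out and 15340 FPKM in wild-type library 1, with 9495 to 11613 FPKM in the other wild-type libraries. Microglial markers, 4 of 6 lower in knock-out, summed to 102 to 117 FPKM in knock-out, to 159 FPKM in wild-type library 1 and to 93.1 to 118 FPKM in the other wild-type libraries. Neuronal markers, which define the labelled tissue together with the glial ones, were lower in knock-out for 3 of 6. They summed to 1583 to 1718 FPKM in knock-out, to 1859 FPKM in wild-type library 1 and to 1634 to 1755 FPKM in the other wild-type libraries. Astrocyte markers were lower in knock-out for 1 of 6. They summed to 1886 to 2120 FPKM in knock-out, to 1698 FPKM in wild-type library 1, the lowest of the 8, and to 1837 to 2051 FPKM in the other wild-type libraries. Meningeal markers were higher in knock-out for 6 of 6 and summed to 83.1 to 193 FPKM in knock-out and 81.8 to 117 FPKM in wild type. Endothelial markers were lower for 3 of 4 and summed to 78.2 to 109.7 FPKM in knock-out and 91.8 to 105 FPKM in wild type. Plasma protein genes expressed mainly in liver, 6 of 6 higher in knock-out, summed to 26.7 to 52.7 FPKM in knock-out and 1.29 to 10.6 FPKM in wild type. No defining marker of these lists was at 0 in all 8 libraries, and the part of these cell types in the complex I values was not tested.

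Most of the 7 nuclear core subunits carry the flavin or iron-sulfur clusters or help to form the ubiquinone site. The mean was lower in knock-out for 6 of the 7, with a median difference of -0.23, and -0.14 without wild-type library 1. Ndufs3 (ENSMUSG00000005510, chr2:90894634-90904827, minus strand), a core subunit of the matrix arm that holds no cluster, had the lowest p of all 46 genes. It had 119, 112, 141 and 109 FPKM in the knock-out libraries, against 159, 148, 149 and 124 FPKM in the wild-type libraries. Knock-out library 3 lay above wild-type library 4, so the groups overlapped. The difference was -0.27 (SE 0.11, 95% interval -0.51 to -0.02, limma adjusted p = 0.62), and -0.22 without wild-type library 1. Ndufv1 (chr19:4007384-4012806, minus strand) binds NADH and the flavin. It had 190.5, 190.0, 217 and 202 FPKM in knock-out libraries, against 244, 233, 231 and 198 FPKM in wild-type libraries, a difference of -0.18 (SE 0.09). Wild-type libraries 1 to 3 were above every knock-out library, and wild-type library 4 was between knock-out values. Ndufv2, which carries an iron-sulfur cluster beside the flavin, averaged 153 ± 8.79 FPKM in knock-out and 186 ± 43.3 FPKM in wild type (-0.25, SE 0.15, and -0.11 without wild-type library 1).

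Ndufs7 lies at the ubiquinone pocket and carries the last cluster of the chain. It averaged 151 ± 13.3 FPKM in knock-out and 182 ± 47.8 FPKM in wild type (-0.23, SE 0.16, and -0.07 without wild-type library 1). Ndufs8, which carries clusters that lead to the pocket, averaged 73.6 ± 10.1 FPKM in knock-out and 89.3 ± 19.3 FPKM in wild type (-0.26, SE 0.16, and -0.14 without that library). Neither difference passed the test. Ndufs1, the largest core subunit and the carrier of several clusters, departed from the other core genes. It had 98.2, 102, 109 and 96.7 FPKM in knock-out libraries, against 78.8, 114, 109.7 and 103 FPKM in wild-type libraries. Here wild-type library 1 was the lowest of all 8, and the difference was 0.02 (SE 0.12), or -0.10 without that library. Ndufs1 overlaps Eef1b2, a translation elongation factor gene at a mean of 168 FPKM, on the opposite strand. Whether the counting used strand is not given in the sources used here, so reads of the pair could be mixed.

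**Figure D2:**
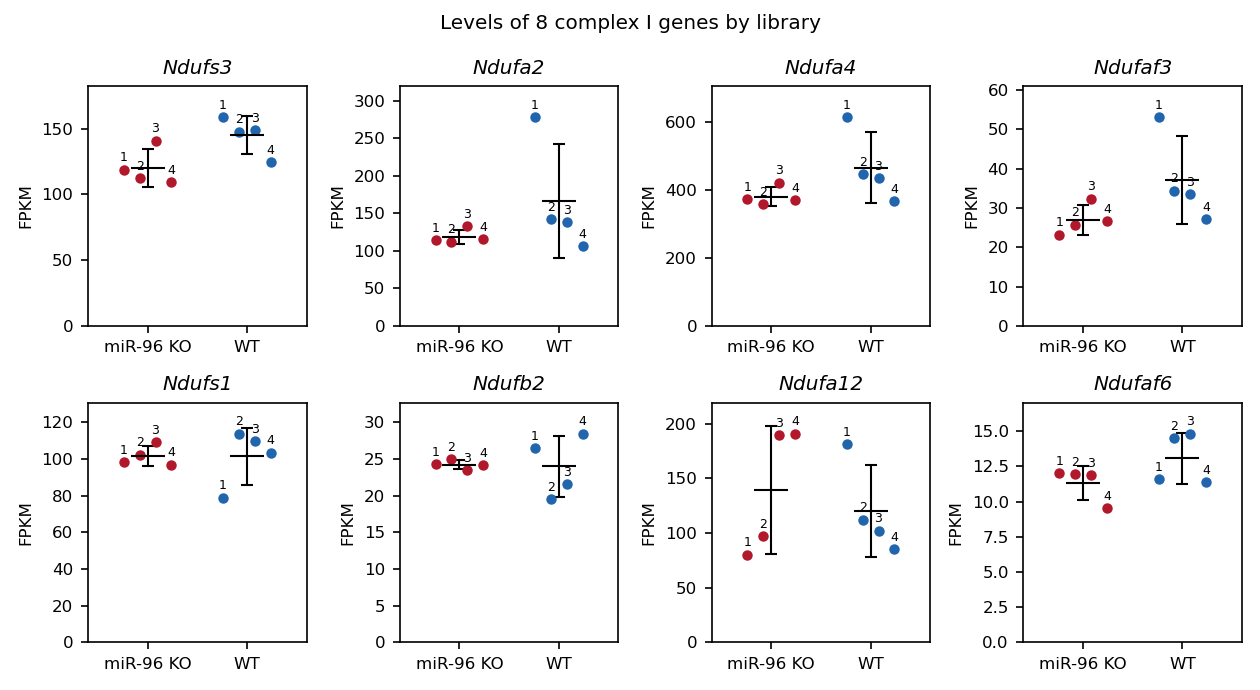
FPKM of 8 complex I genes in each library (numbered points), with knock-out left of wild type, the group mean as a horizontal line and the SD as bars. For Ndufs3, Ndufa2, Ndufa4 and Ndufaf3, wild-type library 1 is the highest point and wild-type library 4 lies among or near the knock-out points; Ndufs1, Ndufb2, Ndufa12 and Ndufaf6 have other orders.

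The 9 accessory subunits of the matrix arm had lower means in knock-out for 8 of 9, with a median difference of -0.28, and -0.11 without wild-type library 1. Ndufs4 (chr13:114287795-114388258, minus strand), whose loss in mice gives a model of Leigh syndrome, had 37.9, 36.8, 42.7 and 37.8 FPKM in knock-out libraries, against 59.7, 48.9, 44.2 and 38.2 FPKM in wild-type libraries. The lowest wild-type value lay within the knock-out range, and the difference was -0.28 (SE 0.13), or -0.16 without wild-type library 1. Ndufa7, an accessory subunit of the matrix arm, had 101, 114, 134 and 99.9 FPKM in knock-out libraries, against 204, 136, 147 and 111 FPKM in wild-type libraries (-0.38, SE 0.18, and -0.22 without wild-type library 1). Ndufa6, a LYR-motif protein that holds an acyl carrier protein, had 143, 144, 179.8 and 141 FPKM in knock-out libraries, against 297, 192, 171 and 146 FPKM in wild-type libraries (-0.36, SE 0.20, and -0.16 without wild-type library 1). Knock-out library 3 was above wild-type library 4 for both genes, so the groups overlapped.

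Ndufa2, an accessory subunit with a thioredoxin-like fold, had 114, 112, 133 and 115 FPKM in knock-out libraries, against 278, 142, 138 and 107 FPKM in wild-type libraries. The wild-type spread came mainly from library 1, at 2.26 times the mean of the other 7, and the difference was -0.39 (SE 0.24), or -0.11 without it. Ndufa12 (chr10:94198720-94221443, plus strand), a late-joining accessory subunit related to Ndufaf2, had the opposite sign and its own library order. It had 80.2, 97.3, 189 and 191 FPKM in knock-out libraries, against 181, 112, 102 and 85.2 FPKM in wild-type libraries. Knock-out libraries 3 and 4 and wild-type library 1 formed a high set, with the other 5 libraries between 80.2 and 112 FPKM. The difference was 0.17 (SE 0.32), and 0.38 without wild-type library 1. Ndufa5, Ndufa9, Ndufs6 and Ndufv3, the other accessory genes of this arm, had differences of -0.21, -0.08, -0.32 and -0.24. They were 0.02, -0.13, -0.07 and -0.05 without wild-type library 1, so that the sign of Ndufa5 turned.

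The 19 genes of the membrane arm, whose products surround the proton-pumping core, had lower means in knock-out for 18 of 19. Their median difference was -0.23, and -0.09 without wild-type library 1. Ndufb5, a subunit with a single membrane span, had 68.2, 65.1, 79.9 and 65.6 FPKM in knock-out libraries, against 135, 85.8, 85.4 and 63.9 FPKM in wild-type libraries (-0.36, SE 0.19, and -0.16 without wild-type library 1). Wild-type library 4 was the lowest of the 8 libraries. Ndufb2, described with its miR-96 matches, was the gene of this arm with a higher mean in knock-out. The other 17 ranged from -0.36 (Ndufb9) to -0.12 (Ndufb6), and these ends were -0.14 and -0.01 without wild-type library 1. Without wild-type library 1, Ndufa1 at 0.01 and Ndufa3 below 0.01 were also at or just above 0, and the arm ranged from -0.16 to 0.08. Ndufa3 was the most highly expressed gene of this arm, with 305 ± 31.8 FPKM in knock-out and 366 ± 128 FPKM in wild type.

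Ndufa4 and Ndufa4l2 carry Nduf symbols, but the Ndufa4 product is known as a subunit of cytochrome c oxidase, complex IV, and Ndufa4l2 is its hypoxia-induced relative. They were the highest and lowest of the 46 genes. Ndufa4 (chr6:11900292-11907497, minus strand) had 373, 358, 423 and 371 FPKM in knock-out libraries, against 615, 448, 437 and 368 FPKM in wild-type libraries, a difference of -0.27 (SE 0.15), or -0.13 without wild-type library 1. Ndufa4l2 had 2.02, 2.00, 2.63 and 2.99 FPKM in knock-out libraries, against 7.20, 3.67, 3.52 and 1.61 FPKM in wild-type libraries. This difference of -0.45 (SE 0.29) was the largest in size among the 46 genes, and it was -0.17 without wild-type library 1. Both groups of Ndufa4l2 spanned low values, where 1 FPKM added before the logarithm understates the change.

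**Figure D3:**
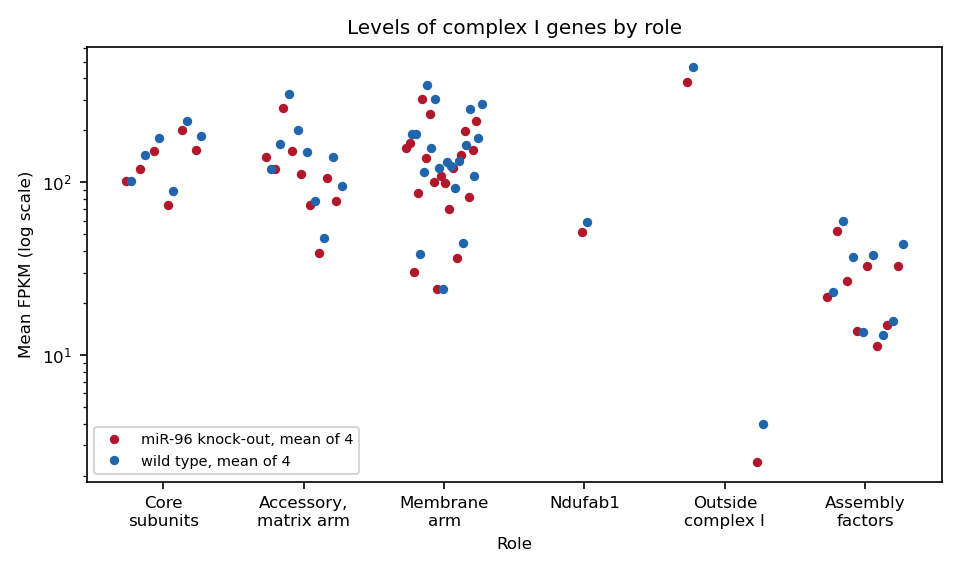
Mean FPKM of the complex I genes drawn, by role on a log axis, as pairs of knock-out (left point of each pair) and wild type (right point). Assembly factors lie at 12.2 to 55.9 FPKM over all 8 libraries, below most subunits, and Ndufa4l2 is the lowest gene at 3.20 FPKM.

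Assembly factors were expressed below most subunits. Their median level over the 8 libraries was 27.3 FPKM (12.2 to 55.9), against 130 FPKM for the genes counted as subunits and 167 FPKM for the core subunits. Ndufaf3 and Ndufaf4, known from human cells to act together early in building the ubiquinone-binding part, differed in direction. Ndufaf3 (chr9:108565537-108567434, minus strand) had 23.2, 25.8, 32.4 and 26.6 FPKM in knock-out libraries, against 53.1, 34.4, 33.6 and 27.2 FPKM in wild-type libraries. Its difference was -0.41 (SE 0.18, 95% interval -0.83 to 0.00, limma adjusted p = 0.62), and -0.23 without wild-type library 1. Ndufaf4 had 14.0, 15.7, 12.3 and 13.4 FPKM in knock-out libraries, against 16.3, 10.6, 11.6 and 15.6 FPKM in wild-type libraries (0.05, SE 0.14, and 0.14 without wild-type library 1). The knock-out range of Ndufaf4 lay inside the wild-type range.

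Ndufaf5 and Ndufaf7 modify arginines of core subunits in human cells, Ndufaf5 in Ndufs7. Ndufaf5 had 30.4, 31.4, 36.7 and 32.2 FPKM in knock-out libraries, against 43.1, 41.0, 36.1 and 32.0 FPKM in wild-type libraries (-0.21, SE 0.11). Ndufaf7 averaged 14.9 ± 1.22 FPKM in knock-out and 15.7 ± 0.473 FPKM in wild type (-0.07, SE 0.09). Ndufaf8, a partner of Ndufaf5 in human cells, had 30.8, 29.6, 40.8 and 30.6 FPKM in knock-out libraries, against 73.5, 35.5, 39.1 and 27.0 FPKM in wild-type libraries. Its difference was -0.31 (SE 0.26), and -0.03 without wild-type library 1.

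Ndufaf1 belongs to the complex with Acad9, Ecsit and Tmem126b that builds part of the membrane arm in human cells. It averaged 21.7 ± 1.48 FPKM in knock-out and 23.3 ± 1.26 FPKM in wild type (-0.10, SE 0.08). Ndufaf2, the factor that Ndufa12 resembles, averaged 52.2 ± 4.10 FPKM in knock-out and 59.7 ± 16.9 FPKM in wild type (-0.16, SE 0.17, and 0.02 without wild-type library 1). Ndufaf6, a factor of early assembly, had 12.03, 11.9, 11.9 and 9.54 FPKM in knock-out libraries, against 11.6, 14.5, 14.8 and 11.4 FPKM in wild-type libraries. Here wild-type library 1 was among the low values, and the difference was -0.18 (SE 0.12) with it and -0.23 without it. The 95% interval included 0 for all 8 assembly factors.

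**Figure D4:**
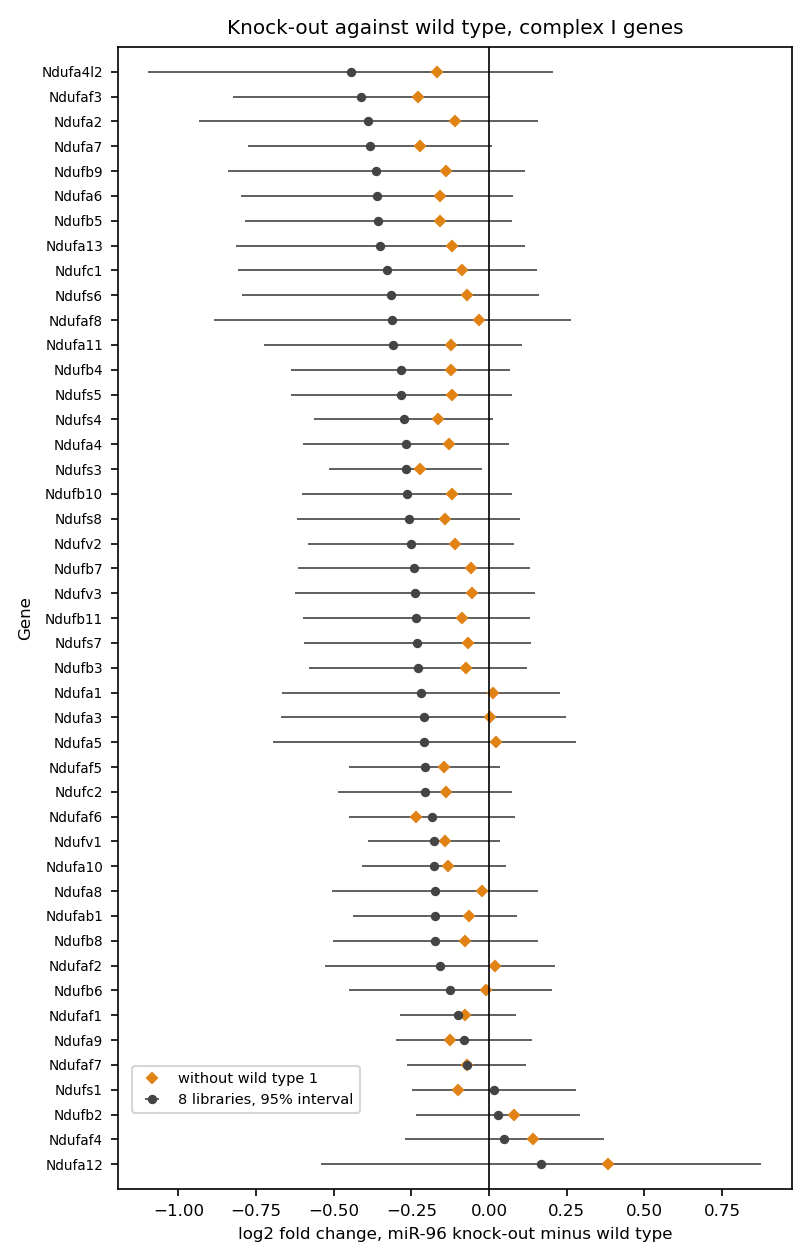
Difference of the complex I genes drawn, knock-out minus wild type on the log2(FPKM + 1) scale, with its 95% interval from limma (dark points and lines) and the value without wild-type library 1 (orange diamonds). The interval of Ndufs3 is the only one that stops short of 0, and most diamonds lie closer to 0 than the points.

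Complex I transcripts are short, and differences varied with transcript length across the transcriptome. The median transcript length was 921 nt for the 46 genes and 2745 nt for all genes tested. The 745 genes under 500 nt, 1 of them of complex I, had a median difference of 0.05, or 0.07 without wild-type library 1. Among genes of 500 to 1000 nt, the median difference was -0.26 for the 25 complex I genes and -0.15 for all 1187 genes. Without wild-type library 1 these medians were -0.09 and -0.04. Among genes of 1000 to 2000 nt, the median was -0.21 for 15 complex I genes and -0.10 for all 3135 genes, while genes of 4000 nt and more had a median of 0.13. These 3 medians were -0.14, -0.05 and 0.06 without wild-type library 1. Across genes, Spearman's rho of length and difference was 0.43 for the 46 genes and 0.43 for the 15023 genes with a length. Without wild-type library 1 it was -0.06 and 0.24. Genes share the same 8 libraries and are not independent replicates, so these coefficients are a description. When the length trend of each library was removed, the median of the 46 genes was -0.12 and 38 of 46 were lower, against 49.9% of all genes with a length. Ndufs1, Ndufb2 and Ndufaf4, 3 of the 4 genes with a higher mean in knock-out, have transcripts of 2625.5, 2413 and 3632 nt. The remaining gene, Ndufa12, has one of 1110 nt. Among the 5 complex I genes of 2000 to 4000 nt, Ndufab1 (-0.17, or -0.07 without wild-type library 1) and Ndufa10 (-0.18) were lower in knock-out. The median of these 5 genes was 0.02, or -0.07 without wild-type library 1.

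**Figure D5:**
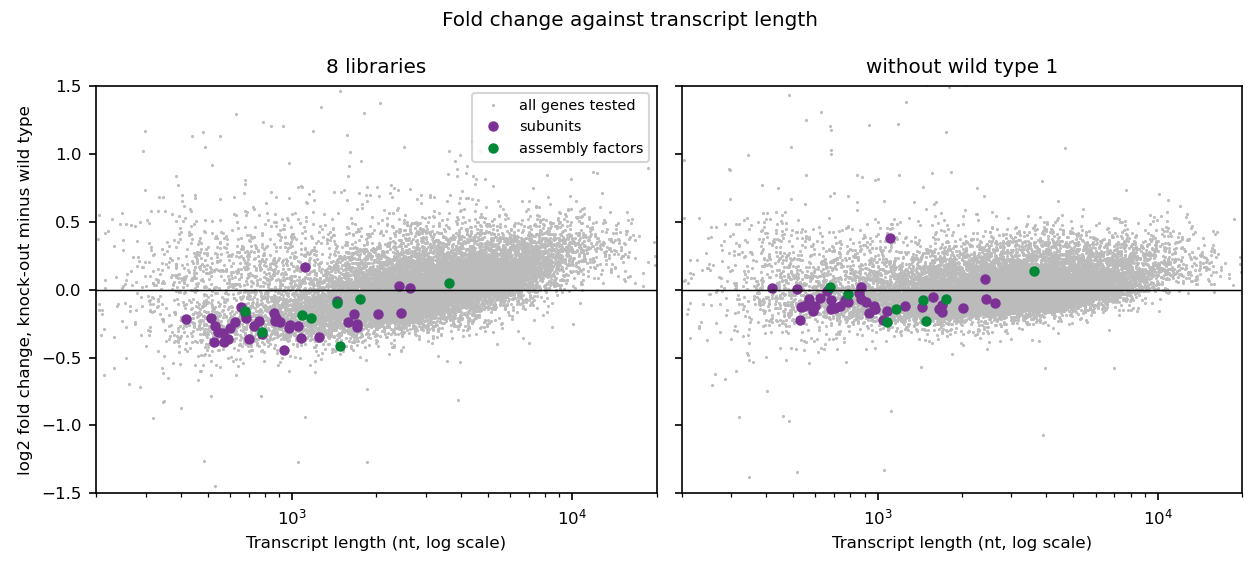
Difference between knock-out and wild type on the log2(FPKM + 1) scale against transcript length (log axis) for all genes tested (grey), subunits (purple) and assembly factors (green), with all 8 libraries (left) and without wild-type library 1 (right). Most complex I genes lie below 0 at left and closer to 0 at right, as do the medians of all genes of 500 to 2000 nt, while the genes under 500 nt have medians above 0 in both panels; genes beyond the axis limits are not drawn.

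The promoters of the 46 genes were read because the genes moved together across libraries. RefSeq promoter windows, 250 bases before to 50 after the start site on GRCm38.p6, were found for 40 of the 46 genes. They were searched on both strands for the motifs of 3 factors known for nuclear genes of the respiratory chain: NRF-1 (its palindromic motif, the letters in capitals in the Ndufaf5 window), GABP of the ETS family (CCGGAAG) and YY1 (AAGATGGCG). The NRF-1 letters were in 3 of the 40 windows (7.5%), against 0.971% of all 32851 windows. GABP letters were in 6 (15%), against 8.86%, and YY1 letters in 6 (15%), against 1.40%. The complex I shares used a single window per gene, while the shares of all windows were not so limited, nor limited to the genes tested. These shares are thus of unlike sets. Ndufaf8 was the 1 gene whose window held 2 of the motifs. The windows of Ndufs3, Ndufs4 and Ndufaf5 are shown as examples of each motif, with the motif in capitals, and that of Ndufa12 because its library order was its own and it held none.
Ndufs3, chr2:90904672-90904971, minus strand: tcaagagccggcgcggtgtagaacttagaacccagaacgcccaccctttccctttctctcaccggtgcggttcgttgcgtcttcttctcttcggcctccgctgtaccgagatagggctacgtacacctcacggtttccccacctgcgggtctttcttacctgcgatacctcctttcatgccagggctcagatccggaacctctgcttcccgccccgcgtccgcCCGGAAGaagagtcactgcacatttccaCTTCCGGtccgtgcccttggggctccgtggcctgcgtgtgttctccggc
Ndufs4, chr13:114388045-114388344, minus strand: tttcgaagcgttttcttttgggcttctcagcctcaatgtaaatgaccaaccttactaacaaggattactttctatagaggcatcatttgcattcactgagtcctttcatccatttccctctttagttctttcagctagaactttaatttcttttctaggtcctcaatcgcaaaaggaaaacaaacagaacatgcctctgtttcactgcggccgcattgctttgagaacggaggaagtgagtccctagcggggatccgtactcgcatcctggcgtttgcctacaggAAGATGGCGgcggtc
Ndufaf5, chr2:140170396-140170695, plus strand: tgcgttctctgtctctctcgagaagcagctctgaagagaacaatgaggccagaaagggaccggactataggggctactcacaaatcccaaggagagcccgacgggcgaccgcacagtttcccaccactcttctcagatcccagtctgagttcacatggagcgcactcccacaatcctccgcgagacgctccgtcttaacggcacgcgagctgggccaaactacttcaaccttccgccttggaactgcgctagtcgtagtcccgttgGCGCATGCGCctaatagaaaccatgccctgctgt
Ndufa12, chr10:94198785-94199084, plus strand: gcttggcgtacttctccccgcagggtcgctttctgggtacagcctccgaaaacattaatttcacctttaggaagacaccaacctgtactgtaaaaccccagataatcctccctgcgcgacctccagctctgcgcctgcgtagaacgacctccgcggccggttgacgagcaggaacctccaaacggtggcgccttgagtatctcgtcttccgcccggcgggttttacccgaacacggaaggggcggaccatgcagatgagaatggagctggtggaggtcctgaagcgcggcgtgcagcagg
In Ndufs3 the GABP letters began 27 bases before the start site on the printed strand and again, on the other strand, just after it. The median difference was -0.25 for the 14 genes with any of these motifs and -0.22 for the 26 with none. These medians were not computed without wild-type library 1. By motif, the median was -0.21 for NRF-1, -0.25 for GABP and -0.29 for YY1. Without that library these were -0.12, -0.07 and -0.08. A match of letters is a description and not a bound site, and a window without one says nothing of the factor.

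Other genes of the respiratory chain were read beside the 46, from lists of gene symbols. The 7 mitochondrially encoded complex I subunits, which form the proton-pumping core, did not share the sign of the nuclear genes. Their mean was lower in knock-out for 3 of 7 and their median difference was 0.05, or 0.28 with 0 of 7 lower when wild-type library 1 was left out. For mt-Nd5 the levels were 1310, 1424, 875 and 1594 FPKM in knock-out libraries, against 934, 865, 949 and 1471 FPKM in wild-type libraries (0.30, SE 0.22). Wild-type library 1 was the highest library for mt-Nd1, mt-Nd2, mt-Nd3, mt-Nd4 and mt-Nd6, but not for mt-Nd5 or mt-Nd4l. The median deviation of the 7 genes in that library was 0.88, against 0.57 for the 46 genes. In wild-type libraries 2 and 3 it was -0.40 and -0.45, against 0.12 and 0.04. PolyA libraries capture mitochondrial transcripts only through their short tails, so levels of these genes may not follow their abundance. Of 11 assembly genes without an Nduf symbol, 8 were lower in knock-out, with a median of -0.10 (-0.04 without wild-type library 1). Nubpl, which delivers iron-sulfur clusters in human cells, averaged 2.40 ± 0.454 FPKM in knock-out and 3.10 ± 0.483 FPKM in wild type (-0.27, SE 0.14). Acad9, the partner of Ndufaf1, averaged 25.5 ± 1.09 FPKM in knock-out and 21.6 ± 5.48 FPKM in wild type (0.27, SE 0.17). That difference was 0.08 without wild-type library 1, where Acad9 was at 13.8 FPKM, against 21.8 to 25.8 FPKM in the other wild-type libraries.

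The nuclear genes of complexes II to V had values close to those of complex I. Of 45 tested, 42 were lower in knock-out, and the median difference was -0.27, or -0.12 without wild-type library 1. Sdhd, a membrane anchor of complex II, averaged 60.7 ± 6.78 FPKM in knock-out and 76.6 ± 13.1 FPKM in wild type (-0.32, SE 0.13, limma adjusted p = 0.62). The 73 tested genes of cytosolic ribosomal proteins, whose transcripts are also short, were all lower in knock-out, with a median of -0.34, and 66 of 73 were lower without wild-type library 1, with a median of -0.11. The 13 enzymes of the tricarboxylic acid cycle, with a median transcript of 2544 nt, had a median of -0.06 (-0.10 without wild-type library 1), with 10 lower. The 9 regulators of mitochondrial biogenesis had a median of 0.04 (0.0026 without wild-type library 1), with 3 lower. Among them, the coactivator gene Ppargc1b averaged 8.24 ± 0.908 FPKM in knock-out and 5.37 ± 2.82 FPKM in wild type (0.70, SE 0.36, and 0.25 without wild-type library 1). Gabpa averaged 13.9 ± 1.78 FPKM in knock-out and 11.1 ± 3.67 FPKM in wild type (0.33, SE 0.19), and Nrf1 averaged 10.5 ± 0.362 FPKM in knock-out and 12.1 ± 2.03 FPKM in wild type (-0.17, SE 0.12, and -0.08 without wild-type library 1). None of these lists held a gene past the adjusted p of 0.05.

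Some values may mix reads of more than 1 gene. Of the 46 genes, 16 overlap another gene with a mean of at least 1 FPKM, 15 of them on the opposite strand. In Ndufs1 the opposite-strand gene had the higher mean, 168 FPKM for Eef1b2 against 101 FPKM. So it was in Ndufb2 (24.1 FPKM, Braf 31.2 FPKM), Ndufaf3 (32.0 FPKM, Impdh2 41.0 FPKM) and Ndufa4l2 (3.20 FPKM, Shmt2 11.4 FPKM). Processed copies of 4 complex I genes are listed as genes of their own. The copy of Ndufab1, Ndufab1-ps, had 16.4 ± 1.33 FPKM in knock-out and 21.7 ± 4.20 FPKM in wild type. The copies of Ndufb4 and Ndufs6 were at 4.79 ± 1.19 and 1.84 ± 0.859 FPKM in knock-out and at 6.37 ± 1.55 and 2.96 ± 1.20 FPKM in wild type, and that of Ndufa11 was near 0. How reads were split between a gene and its copy is not given in the sources used here, so the levels of these 4 genes are uncertain.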

How the data were processed

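PolyA RNA of the spinal dorsal horn was sequenced from NEBNext Ultra libraries, per the labels' protocols. The authors deposited FPKM per gene for each of the 8 libraries, and HISAT2, SAMtools and Cufflinks are named in the submitters' processing notes, with no versions or strand setting given in the sources used here. Those notes list the build mm8, but the deposited locus equalled GENCODE M21 on GRCm38 for 45128 of the 49326 genes with a symbol (91.5%), so printed coordinates are GRCm38, numbered from 1; of the 46 genes, 32 had an identical locus. FPKM are not counts, so no count model was fitted. Depth was estimated from the FPKM steps of 1 fragment in transcripts of at least 3000 nt, with an assumed fragment length of 200 nt; 93.4% to 97.6% of those values lay within 0.15 of a whole number, and the estimate holds only under that assumption.

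Log2(FPKM + 1) values of knock-out and wild type were compared in limma 3.58.1 under R 4.3.3, by lmFit and a two-sided eBayes test that was robust and let the variance follow the level. A gene entered the fit if its FPKM averaged 1 or more (15061 genes), with Benjamini-Hochberg adjustment over all of them. The script was tested on simulated data with independent noise per gene and differences larger than those of the complex I genes. The simulation held no shift shared by the genes of a library, so it says nothing of such shifts. Transcript length is the median over APPRIS principal transcripts, or the longest transcript where there is none. Alternatives were a pseudocount of 0.1, no filter, a minimum mean of 5 FPKM, scaling by median ratios or by quantiles, no trend and no robust option, library weights, a replicate block, removal of length and of length and GC trends (lowess span 0.3), and leaving out each library. The members and lists were chosen with earlier results of these data known. Of the 46 genes, 1 is not reported here by itself and is not drawn; it is in all counts and medians. Genes with full values were core subunits, all assembly factors, Ndufa4 and Ndufa4l2, the 10 of lowest p, the highest and lowest level and the 3 largest differences each way; of other lists, 1 to 3 of the 3 genes of lowest p.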

Additional observations from a re-analysis of the deposited data

Results flagged for a closer look

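In 48 groups of 4 values (24 complex I genes by 2 genotypes), 4 held a library far from its group, where chance gives about 1 in 20. All 4 were in knock-out. Ndufa2 was at 133.2 FPKM in knock-out library 3, with the next value at 115.3. Ndufa6 was at 179.8 FPKM in the same library, with the next at 143.8, and Ndufaf8 at 40.79 FPKM there, with the next at 30.79. Ndufaf6 was at 9.544 FPKM in knock-out library 4, below the next value of 11.85. Wild-type library 1, the highest library for most of these genes, was not among these cases in any of the 24 genes. The other complex I genes were not checked by this rule, so that absence holds for the 24 genes only.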

How the results depend on the processing

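Libraries with the same replicate number did not deviate together (correlations of -0.11, -0.06, 0.02 and 0.14), so the numbers were not taken to pair them. With the replicate block, 2 complex I genes were lower at an unadjusted limma p under 0.05 (1.73% of all genes tested), against 1 without it. That count was 2 with the length trend removed (2.22%), 4 with length and GC trends removed (1.96%) and 30 with library weights. Leaving out single libraries gave 0 to 29: 29 without wild-type library 4, 6 without knock-out library 3 (3.5%) and 0 without any other. Library weights, 0.153 for wild-type library 1, 0.423 for wild-type library 4 and 5.09 for wild-type library 3, put 9 complex I genes past the adjusted p of 0.05. Genes with all knock-out libraries below all wild-type libraries numbered 0 to 23 when single libraries were left out, with 23 without wild-type library 4 and 5 without knock-out library 3 (5.96%). The median of the subunits, -0.24, was -0.15 with quantile scaling, -0.12 with the length trend removed, -0.10 with length and GC trends removed, -0.11 without wild-type library 1 and -0.365 without wild-type library 4. That of the assembly factors, -0.17, was -0.037 with the length trend removed, -0.064 with length and GC trends removed and -0.074 without wild-type library 1. Small differences changed sign: Ndufaf4 was -0.085 with length and GC trends removed, Ndufaf1 was 0.0059 and Ndufaf7 0.0089 with the length trend removed, and Ndufs1 was -0.11 with library weights. When single libraries were left out, differences ran from -0.018 to 0.396 for Ndufa12, from -0.267 to 0.018 for Ndufaf2, from -0.052 to 0.141 for Ndufaf4, from -0.062 to 0.113 for Ndufb2 and from -0.100 to 0.074 for Ndufs1. The cause of these changes was not tested. Of 431 values of 24 genes under 18 other settings, 409 kept their direction and side of the threshold, 8 passed it with library weights (Ndufa7, Ndufaf3, Ndufaf6, Ndufb5, Ndufs3, Ndufs4, Ndufs8 and Ndufv1) and 14 changed sign. The median SE of a complex I gene was 0.16, against a median difference of -0.23.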
